A study of Mus musculus with 68 samples.

Results

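Zp1, Zp2, Zp3, Gdf9, Bmp15, Oosp1, Figla and Nobox, 8 of the 24421 genes listed in every deposited table, were taken by gene symbol as the genes of the egg coat, of the factors secreted by the oocyte and of the transcription factors behind them. The libraries came from cumulus cells (CCs, the somatic cells around the oocyte, which served as nuclear donors) and from mouse embryos made by somatic cell nuclear transfer (SCNT), in which a CC nucleus is placed in an enucleated MII oocyte. There were 3 libraries of CCs, 5 of 4-cell (4C) SCNT embryos, and 6 each of SCNT embryos at 6 h post activation (6 hpa), 14 hpa, the early 2-cell (E2C), late 2-cell (L2C) and 8-cell (8C) stages and the morula, and of both parts of the SCNT blastocyst, the inner cell mass (ICM) and the trophectoderm (TE). Oocytes came from superovulated BDF1 (B6D2F1) females, and every SCNT embryo was activated with SrCl2 in the presence of cytochalasin B. A second set of 12 libraries came from the ICM and TE of fertilized C57BL/6j blastocysts injected as zygotes with a morpholino oligonucleotide (MO) against Max, an MO against Mcrs1 or a control, with 2 libraries per group. The 4 control libraries are labelled control and untreated, and the protocol names a random control MO, which the methods place at a higher concentration than the other MOs. Per the labels, each reaction held 10 blastomeres. Per the methods, the zona was taken off the embryos, polar bodies were removed before the blastocyst stage, and ICM and TE cells were parted by hand with needles. No fertilized embryos before the blastocyst were used here, so the decay described below belongs to SCNT embryos and was not compared with normal development.

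The zona pellucida is a glycoprotein coat that the growing oocyte makes from ZP1, ZP2 and ZP3. GDF9 and BMP15 are TGF-beta family ligands by which the oocyte directs the follicle cells around it, and OOSP1 is a small secreted oocyte protein. FIGLA, a basic helix-loop-helix factor, and NOBOX, a homeobox factor, drive such genes while the oocyte grows, after which transcription stops and the messages are stored until they are destroyed around the first divisions.

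The sequences that mark these genes were read first, since they are what the proteins that drive, store and tail the messages are known to bind. RefSeq promoters (build GRCm38.p6) were matched for 5 of the 8 genes, Zp3, Bmp15, Oosp1, Figla and Nobox, and the 250 bases before the start are shown for 3 of them. Bmp15 and Oosp1 are shown because their levels ran most alike, and Zp3 because it departed from both. Capitals mark E-boxes (CANNTG, the kind of site FIGLA binds) and NOBOX elements, which are TAATTG or its variants with G in the third place (TAGTTG) and with A in the last (TAATTA), on either strand. The Zp3 promoter is at chr5:135979855-135980104 on the plus strand, that of Bmp15 at chrX:6320725-6320974 on the minus strand and that of Oosp1 at chr19:11691052-11691301 on the minus strand.
Zp3: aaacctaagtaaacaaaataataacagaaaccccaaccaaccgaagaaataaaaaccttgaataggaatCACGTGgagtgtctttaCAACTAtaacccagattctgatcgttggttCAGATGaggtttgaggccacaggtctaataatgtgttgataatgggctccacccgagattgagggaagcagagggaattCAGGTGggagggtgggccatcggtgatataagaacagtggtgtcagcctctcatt
Bmp15: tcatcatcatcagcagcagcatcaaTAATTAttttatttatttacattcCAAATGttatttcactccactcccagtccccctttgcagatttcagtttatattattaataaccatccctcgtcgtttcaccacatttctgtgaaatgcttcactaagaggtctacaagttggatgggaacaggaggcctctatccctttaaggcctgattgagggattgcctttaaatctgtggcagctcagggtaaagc
Oosp1: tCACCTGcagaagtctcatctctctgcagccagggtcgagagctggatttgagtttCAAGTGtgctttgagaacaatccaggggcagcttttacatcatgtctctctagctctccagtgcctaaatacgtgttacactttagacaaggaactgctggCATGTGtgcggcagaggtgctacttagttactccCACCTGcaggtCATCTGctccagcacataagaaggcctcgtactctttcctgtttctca
The Zp3 window held 3 E-boxes and 1 NOBOX element, which is CAACTA as printed and TAGTTG on the other strand. The Bmp15 window held 1 E-box and 1 NOBOX element, and the Oosp1 window 5 E-boxes and 0 NOBOX elements. No E-box overlapped a NOBOX element in these windows. Of 27025 mouse promoters of the same length, 66.0% held an E-box and 16.3% a NOBOX element, so either match is common.

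The genes also differed at the other end of the transcript. In the GENCODE vM21 transcript with the longest coding sequence, the 3′ UTR was 34 bases in Zp1, 49 in Zp2 and 13 in Zp3, against a median of 800 over 20628 genes, and 1.58%, 2.59% and 0.325% of genes had a shorter one. It was 360 bases in Gdf9, 1523 in Bmp15, 230 in Oosp1, 120 in Figla and 281 in Nobox. A cytoplasmic polyadenylation element (CPE, TTTTAT or TTTTAAT on the sense strand), at which stored egg messages are known to gain or keep a tail, was found 1 time in Gdf9, 3 times in Bmp15 and 1 time in Oosp1, and 0 times in Zp1, Zp2, Zp3, Figla and Nobox, with 53.5% of genes holding at least 1. A 3′ UTR as short as those of Zp1, Zp2 and Zp3 leaves little room for a CPE, so their 0 cannot be set against that share. The 13 bases of the Zp3 3′ UTR held neither AATAAA nor ATTAAA, the hexamers that guide the addition of the tail. The search began after the stop codon, so a hexamer in or across the coding end of Zp3 would have been missed. Windows of 30 bases are shown for the CPEs of the secreted factors, in capitals, and, by contrast, for the hexamers of Zp1 and Zp2, in capitals.
Gdf9, CPE from 39 bases before the transcript's end: agagtgctgtggTTTTATgtgacggaagaa
Bmp15, CPE from 530 bases before the end: gctattgactagTTTTATcacattctctct
Oosp1, CPE from 120 bases before the end: agctgtccctgcTTTTAATtgtataaaatc
Zp1, hexamer from 26 bases before the end: atggactcAATAAAccattgtttgaaaact
Zp2, hexamer from 38 bases before the end: ttggacttgcaAATAAAgagactgcagtta
Only RNA with a poly(A) tail was captured, so a change in the amount of one of these messages and a change in its tail cannot be told apart in what follows.

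Levels are TPM, a length-scaled share of the transcripts assembled in a library, so fewer transcripts of a gene and more of all others cannot be told apart. The tables hold no read counts. Depth, taken as aligned gigabases, was between 1.90 and 5.17 in the SCNT libraries and between 1.00 and 3.19 in the fertilized ones. The TPM of annotated genes came to between 30.4% and 90.9% of that of the assembled loci in the SCNT libraries, with the lowest share in an L2C library. Annotated genes overlap these loci, so the remainder need not lie at unannotated loci. Libraries numbered 1 to 3 and 4 to 6 stood apart within several stages, at 14 hpa with annotated shares of 53.7% to 63.8% against 65.2% to 69.2%. The labels do not call these numbers batches, and values within each set are given beside the results they touch. The labels do not say whether libraries of a group came from separate embryo pools, so the p-values measure the spread between these libraries. The 12 cumulus markers fixed for this work summed to between 2037 and 3311 TPM in CCs and to between 4.45 and 14.9 TPM at 6 hpa.

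At 6 hpa the genes covered a wide range of levels. By median TPM, Oosp1 had rank 29 of the 24421 genes, Bmp15 rank 43 and Gdf9 rank 116, while Zp3 had rank 888, Nobox 1144, Zp2 2034, Zp1 2850 and Figla 8809. The secreted factors thus stood far above the coat proteins. The sum of the 8 genes ran from 4040 to 8056 TPM over the 6 libraries, with a median of 6638. In the CCs that gave the nuclei, Zp1, Zp2, Zp3, Oosp1, Figla and Nobox were listed at 0 in each of the 3 libraries, Bmp15 was at 0, 0 and 0.0158 TPM, and Gdf9 at 0.864, 2.23 and 0 TPM. In the limma fit of the 56 CC and SCNT libraries over 12084 genes, with Benjamini-Hochberg adjustment and a call at an adjusted p under 0.05 and at least 2-fold, 7 of the 8 genes were higher at 6 hpa than in CCs, against 25.8% of all genes. Their differences on the log2(TPM + 1) scale ran from 4.28 for Zp1 to 11.63 for Oosp1. Figla, at 0.89 (adjusted p = 0.169), did not pass. All 8 genes passed the filter of a mean of 1 TPM over the 56 libraries, Figla only through replicate 1 of the SCNT ICM, at 16.5 TPM. Zp1, Zp2, Gdf9 and Nobox passed it only through their levels from 6 hpa to L2C. They were thus tested because of the libraries where they were high, so the 7 of 8 cannot be set against the share of all genes. Their calls against CCs were kept without the filter.

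The sum of the 8 genes kept 49.4% of its 6 hpa median at 14 hpa, 52.6% at E2C and 28.8% at L2C. The sets of libraries differed in this. Among libraries 1 to 3 the mean sum was 5786 TPM at 6 hpa, 1891 at 14 hpa, 2832 at E2C and 1084 at L2C. Among libraries 4 to 6 it was 7111, 4510, 3917 and 2536 TPM. From 14 hpa to E2C the mean thus rose in libraries 1 to 3 and fell in libraries 4 to 6. The pooled medians at 14 hpa, E2C and L2C lie in the gap between the sets. The sum then stood at 1.34% at 4C and 0.212% at 8C. The main drop was thus between L2C and 4C, but the genes did not move as a block, and they differed in which earlier step they lost ground (plot of levels by stage).

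**Figure D1:**
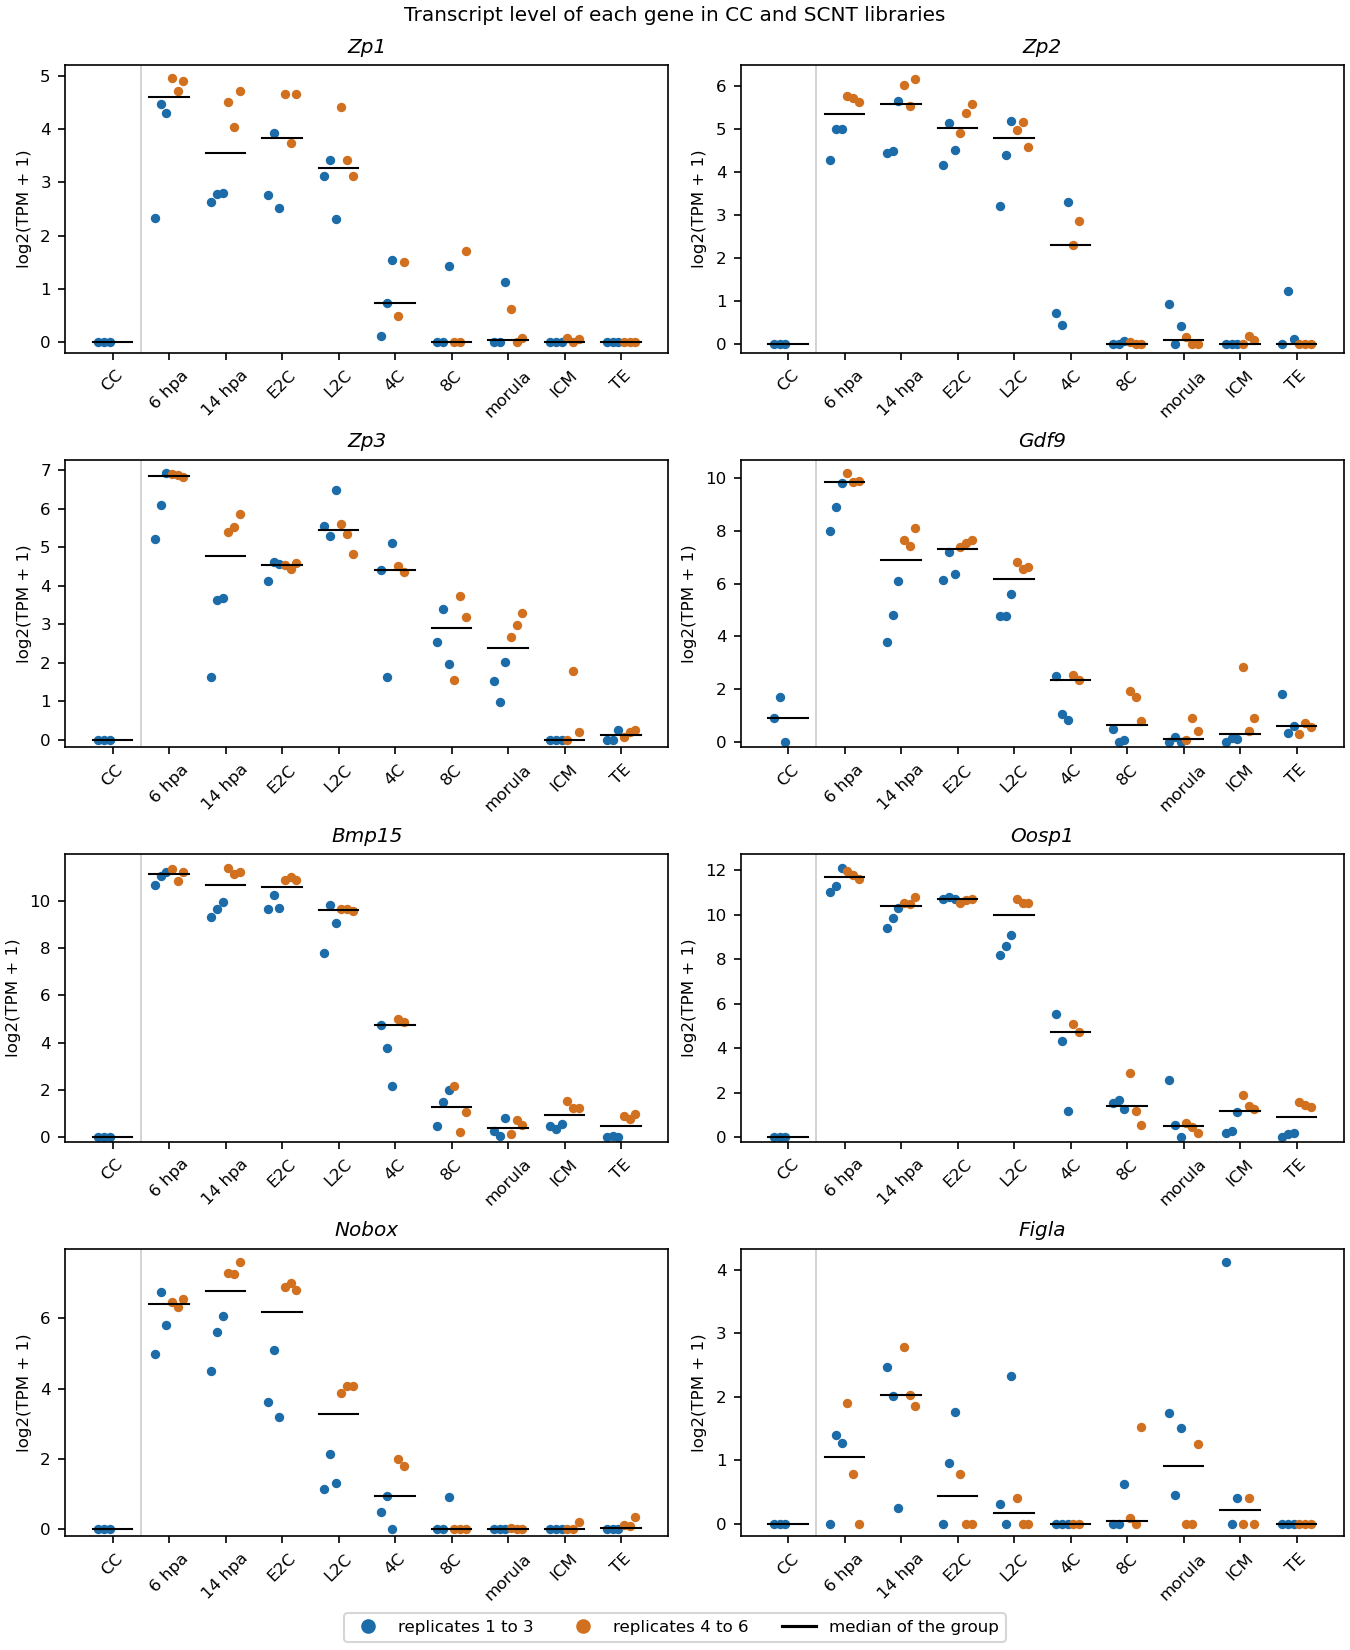
Level of each gene, as log2(TPM + 1), in every CC and SCNT library by stage, with 3 CC libraries, 5 at 4C and 6 in each other group; points are libraries, blue for replicates 1 to 3 and orange for replicates 4 to 6, and bars are group medians. Zp1, Zp2, Gdf9, Bmp15, Oosp1 and Nobox run from high levels at 6 hpa to near 0 at 8C, Zp3 keeps a median of 4.19 TPM in the morula, and Figla is low throughout.

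The coat genes are given first. Zp1 (chr19:10914296-10920601 of mm10, minus strand), whose protein cross-links the filaments of the coat, stood between 4.04 and 29.8 TPM at 6 hpa (median 23.3), between 5.21 and 25.1 at 14 hpa (median 10.7), between 4.70 and 24.3 at E2C (median 13.2) and between 3.97 and 20.3 at L2C (median 8.68). These ranges overlapped from each stage to the next, and no step of them passed the test. At 4C the 5 libraries had 0.0793, 0.667, 1.92, 0.412 and 1.85 TPM, all below the lowest L2C library. Zp1 fell by 2.42 ± 0.42 on the log2(TPM + 1) scale (SE, adjusted p = 4.42e-06). Zp1 was at 0 in 4 of 6 libraries at 8C and in all 6 of TE.

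Zp2 (chr7:120132361-120145290, minus strand), whose protein binds sperm, was the steadiest of the coat genes in the early stages. It had between 18.5 and 53.4 TPM at 6 hpa (median 39.9), between 21.0 and 71.6 at 14 hpa (median 47.3), between 17.0 and 47.2 at E2C (median 31.9) and between 8.24 and 35.7 at L2C (median 26.9). The ranges overlapped throughout, and from 6 hpa to L2C the difference of -0.64 did not pass the test (adjusted p = 0.14). At 4C the values were 0.650, 0.357, 8.89, 3.96 and 6.26 TPM, so that 1 library reached the lowest value at L2C. Zp2 fell by 2.66 from L2C to 4C (adjusted p = 9.97e-08) and by a further 1.91 from 4C to 8C (adjusted p = 0.000223), where no library exceeded 0.0481 TPM. Among libraries 1 to 3 the latter did not pass (-1.47, adjusted p = 0.0895).

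Zp3 (chr5:135980105-135988624, plus strand), whose protein builds the filaments together with ZP2, took another course. It had between 35.9 and 121 TPM at 6 hpa (median 114.8), between 2.07 and 57.6 at 14 hpa (median 26.5), between 16.3 and 23.6 at E2C (median 22.4) and between 27.4 and 88.0 at L2C (median 42.7). Zp3 fell by 2.19 from 6 to 14 hpa (SE 0.50, adjusted p = 0.00106), by 3.11 among libraries 1 to 3 and by 1.27 among libraries 4 to 6, both past the test. Every L2C library then lay above every E2C library. That difference of 1.04 had an adjusted p of 0.0927, and of 0.0229 with TPM rescaled over annotated genes. Their TPM came to 30.4% to 61.8% of that of assembled loci at L2C and to 59.5% to 69.1% at E2C. At 4C the libraries had 20.4, 2.08, 33.3, 21.9 and 19.5 TPM, overlapping the L2C range, and the difference from L2C was -1.51 (adjusted p = 0.0159). Without the 4C library at 2.08 TPM, replicate 2, it was -0.91 and no longer passed (adjusted p = 0.149). Nor did it pass among libraries 4 to 6, which do not hold that library (-0.82, adjusted p = 0.156), or with 0.1 TPM added in place of 1 (adjusted p = 0.0601).

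Zp3 also had the highest median of the set at 8C and in the morula. It was between 1.94 and 12.4 TPM in the 6 libraries at 8C (median 6.45) and between 0.981 and 8.74 in the 6 morulae (median 4.19), where no other gene of the set but Oosp1, Figla and Zp1 reached 1 TPM in any library. From the morula to the blastocyst it fell by 1.91 in the ICM (adjusted p = 0.00267) and fell by 2.11 in the TE (adjusted p = 0.000907), to 0 in 4 of 6 ICM libraries and to at most 0.195 TPM in TE. Among libraries 1 to 3 alone neither of these falls passed, at -1.51 (adjusted p = 0.0864) and -1.43 (adjusted p = 0.136).

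Of the secreted factors, Gdf9 (chr11:53433286-53437902, plus strand) changed most from 6 to 14 hpa. It had between 255.5 and 1158 TPM at 6 hpa (median 906.6) and between 13.0 and 271.7 at 14 hpa (median 118.5), and only the highest 14 hpa library reached the lowest at 6 hpa. Gdf9 fell by 3.13 (SE 0.53, adjusted p = 1.17e-05), by 4.00 among libraries 1 to 3 and by 2.25 among libraries 4 to 6. It was between 69.5 and 197.8 TPM at E2C (median 156.5) and between 26.2 and 111.3 at L2C (median 70.8), overlapping ranges with no call between them. At 4C the values were 4.65, 1.07, 0.776, 4.75 and 4.16 TPM, far below L2C, from which Gdf9 fell by 4.01 (adjusted p = 3.09e-08).

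Bmp15 (chrX:6314106-6320723, minus strand), the ligand with which GDF9 acts on the cumulus, held its level longer. It had between 1627 and 2636 TPM at 6 hpa (median 2244), between 639.2 and 2715 at 14 hpa (median 1613) and between 807.6 and 2053 at E2C (median 1541). These ranges overlapped and no step between them passed, although at 14 hpa libraries 1 to 3 (639.2, 794.1 and 994.9 TPM) lay below each 6 hpa library and libraries 4 to 6 (2715, 2231 and 2375 TPM) did not. The difference from 6 hpa was -0.62 over all libraries (adjusted p = 0.381), -1.34 among libraries 1 to 3 and 0.10 among libraries 4 to 6. Bmp15 then fell by 1.13 from E2C to L2C (adjusted p = 0.0167), to between 218.5 and 905.5 TPM, a call that was lost with TPM rescaled over annotated genes (-0.79, adjusted p = 0.071), with quantile normalization (-0.50, adjusted p = 0.253), with 0.1 TPM added (adjusted p = 0.148), among libraries 1 to 3 (-0.97, adjusted p = 0.18), without replicate 1 (-0.98, under 2-fold) and without replicate 6 (-1.10, adjusted p = 0.0536). At 4C it had 26.1, 12.6, 3.52, 30.7 and 28.6 TPM and fell by 5.14 (adjusted p = 2.18e-15), and at 8C it had between 0.145 and 3.53 TPM and again fell by 2.89 (adjusted p = 4.65e-07).

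Oosp1 (chr19:11667460-11691051, minus strand) was the most abundant of the set. It had between 2068 and 4459 TPM at 6 hpa (median 3305), between 674.8 and 1759 at 14 hpa (median 1351), between 1486 and 1805 at E2C (median 1669) and between 290.7 and 1676 at L2C (median 1008). Each 14 hpa and each E2C library lay below each 6 hpa library. Oosp1 fell by 1.41 to 14 hpa (adjusted p = 0.0376), a call that was lost with rescaled TPM (-1.23, adjusted p = 0.073), with quantile normalization (-0.74, adjusted p = 0.285), with 0.1 TPM added (adjusted p = 0.272), without the filter (adjusted p = 0.0593), and when any one of replicates 2 to 6 was left out (adjusted p from 0.0583 to 0.103). The call was also lost among libraries 1 to 3 (-1.63, adjusted p = 0.173) and held among libraries 4 to 6 (-1.18, adjusted p = 0.0147). At L2C the libraries split by number, into 290.7, 385.9 and 545.6 TPM for libraries 1 to 3 and 1676, 1469 and 1497 TPM for libraries 4 to 6. At 4C they had 45.1, 18.9, 1.24, 33.2 and 25.9 TPM. From L2C Oosp1 thus fell by 5.44 (adjusted p = 2.86e-13), the largest change of any gene of the set at any single step. Oosp1 fell by another 2.64 to 8C (adjusted p = 8.09e-05).

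Nobox (chr6:43303674-43309554, minus strand), the homeobox factor, was first called lower before the main drop but after Gdf9 and Zp3. It had between 30.9 and 107.5 TPM at 6 hpa (median 83.8), between 21.8 and 194.4 at 14 hpa (median 109.7) and between 8.10 and 128.0 at E2C (median 72.1). At E2C libraries 1 to 3 had 11.2, 33.3 and 8.10 TPM and libraries 4 to 6 had 117.5, 128.0 and 110.8 TPM. The mean of libraries 1 to 3 went from 64.7 TPM at 6 hpa to 45.2 at 14 hpa and 17.5 at E2C. That of libraries 4 to 6 went from 86.7 to 168.1 and 118.8 TPM, so the sets differed in when Nobox began to fall. From E2C to L2C Nobox fell by 2.66 (adjusted p = 3.56e-05), to between 1.20 and 16.0 TPM, by 2.43 among libraries 1 to 3 and by 2.88 among libraries 4 to 6. It was therefore already at 10.3% of its 6 hpa median at L2C, when Bmp15 stood at 34.8% and Zp2 at 67.3%. That L2C median of Nobox, 8.62 TPM, lies in the gap between the sets, whose means were 2.05 and 15.2 TPM. At 4C, with 0.391, 0.937, 0, 2.99 and 2.49 TPM, Nobox fell by 1.73 (adjusted p = 0.00752), a call that was lost with quantile normalization (-1.11, adjusted p = 0.0809), in a fit of both groups alone (-1.73, adjusted p = 0.0596) and among libraries 1 to 3 (-1.06, adjusted p = 0.12).

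Figla (chr6:86017191-86020996, plus strand), the helix-loop-helix factor, was barely present. It had between 0 and 2.74 TPM at 6 hpa (median 1.07), between 0.186 and 5.92 at 14 hpa (median 3.06), between 0 and 2.39 at E2C and between 0 and 4.00 at L2C, and was at 0 in all 5 libraries at 4C. Its ranges overlapped from each stage to the next and none of its steps passed the test, although its 14 hpa libraries all lay above 0 and those at 4C and of TE did not. Its highest value was in the ICM, at 16.5 TPM in replicate 1, with at most 0.325 TPM in the other 5 ICM libraries.

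**Figure D2:**
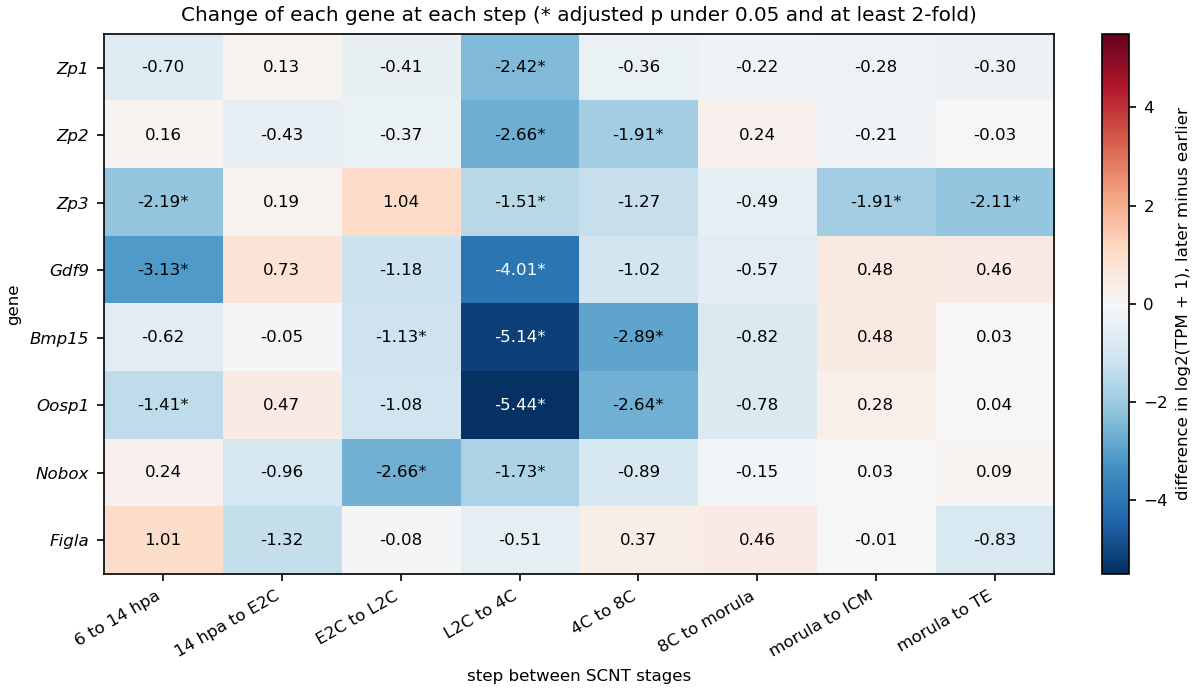
Difference of each gene (rows) at each step between SCNT stages (columns), as log2(TPM + 1) of the later minus the earlier stage from the limma fit of 56 libraries; blue is lower and red higher later, and an asterisk marks an adjusted p under 0.05 with at least a 2-fold change. The column from L2C to 4C holds 7 marks, and Gdf9, Zp3 and Oosp1 alone are marked from 6 to 14 hpa.

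Counted over the set, 3 of 8 genes fell from 6 to 14 hpa, against 5.02% of all genes tested called lower. Between 14 hpa and E2C 0 of 8 were called in either direction, against 6.00% of all genes, and 1, Figla at -1.32, had an unadjusted p under 0.05. From E2C to L2C 2 of 8 fell, against 11.1%, and from L2C to 4C 7 of 8, against 26.5%. The median gene of the set changed by -2.54 at that last step, and the median of all genes tested by -0.33. From 4C to 8C 3 of 8 fell, against 8.39%. From 8C to the morula 0 of 8 were called in either direction, against 12.6%, and 1 had an unadjusted p under 0.05. From the morula 1 of 8, Zp3, fell both to the ICM, against 15.1%, and to the TE, against 10.9%. Zp1, Zp2, Gdf9 and Nobox passed the filter only through their levels from 6 hpa to L2C. The counts of falls therefore cannot be set against the shares of all genes as a result.

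Set against 6 hpa as a common start, 4 of 8 genes were lower at L2C, against 15.7% of all genes, and they were the secreted factors and Nobox. The difference was -3.58 for Gdf9 (adjusted p = 8.56e-08), -3.38 for Nobox (adjusted p = 1.9e-07), -2.02 for Oosp1 (adjusted p = 0.000314) and -1.80 for Bmp15 (adjusted p = 9.89e-05), while the differences of Zp1 (-0.98), Zp3 (-0.96) and Zp2 (-0.64) were under 2-fold. With quantile normalization this order turned, and Zp1 (-1.71, adjusted p = 0.000173), Zp2 (-1.05, adjusted p = 0.00513) and Zp3 (-1.16, adjusted p = 0.0341) passed while Bmp15 (-0.74, adjusted p = 0.0645) and Oosp1 (-0.69, adjusted p = 0.178) did not, so which of them had fallen by L2C depends on the scaling. Zp1 also passed without replicate 1 (-1.33, adjusted p = 0.00547) and without replicate 4 (-1.06, adjusted p = 0.0418). The median of all genes at this comparison was 0.37 as deposited and -0.02 after quantile normalization. At 8C, 7 of 8 were lower than at 6 hpa, against 31.2% of all genes, with differences of -10.10 for Oosp1, -9.83 for Bmp15, -8.60 for Gdf9, -5.21 for Zp2, -3.75 for Zp1 and -3.74 for Zp3, and with Nobox between Gdf9 and Zp2. The order of these falls was the order of the levels at 6 hpa, with Zp3 as the exception. Apart from Zp3, the medians at 8C were 1.68 TPM or less. Near that floor a fall on this scale largely restates the starting level, so the order does not compare rates of decay. Since Zp1, Zp2, Gdf9 and Nobox were tested only because of their early levels, the counts against 6 hpa cannot be set against the shares of all genes.

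Ratios within a library cancel its scaling and show where the genes parted. The 4 ratios given here were chosen after their values were seen, and their two-sided exact permutation tests over libraries, adjusted over the 4, are a description of that choice. Gdf9 had between 0.157 and 0.498 transcripts for each of Bmp15 at 6 hpa (median 0.386) and between 0.0203 and 0.114 at 14 hpa (median 0.0706), with no overlap. On the log2 scale, with 1 TPM added to both, this ratio went from -1.62 ± 0.64 (SD, n = 6) to -4.13 ± 0.87 (SD, n = 6), a difference of -2.51 (exact permutation p = 0.00216, adjusted p = 0.00216), and of -2.67 and -2.35 in libraries 1 to 3 and 4 to 6. Gdf9 thus lost ground to Bmp15 in both sets.

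The coat genes parted as well. Zp3 stood between 1.94 and 3.90 for each Zp2 at 6 hpa (median 2.24), between 0.0984 and 1.00 at 14 hpa (median 0.584), between 0.487 and 1.02 at E2C (median 0.719) and between 1.13 and 5.57 at L2C (median 1.71). The 14 hpa libraries were all below those at 6 hpa, a log2 difference of -2.35, and the L2C libraries were all above those at E2C, a log2 difference of 1.40 (exact permutation p = 0.00216 for each, n = 6 against 6). The return at L2C was 1.69 in libraries 1 to 3 and 1.12 in libraries 4 to 6. Zp3 therefore fell against Zp2 and then regained ground, with both read from the same libraries. Against Bmp15, Zp3 went from a median of 0.0539 at L2C to 0.711 at 4C, a difference of 3.63 on the log2 scale with 1 TPM added to both (exact permutation p = 0.00216, n = 5 against 6). The ratios themselves overlapped, since 4C replicate 2, at 0.165, lay below L2C replicate 1, at 0.210. For a gain within sets of 3 libraries the smallest p such a test can give is 0.1.

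**Figure D3:**
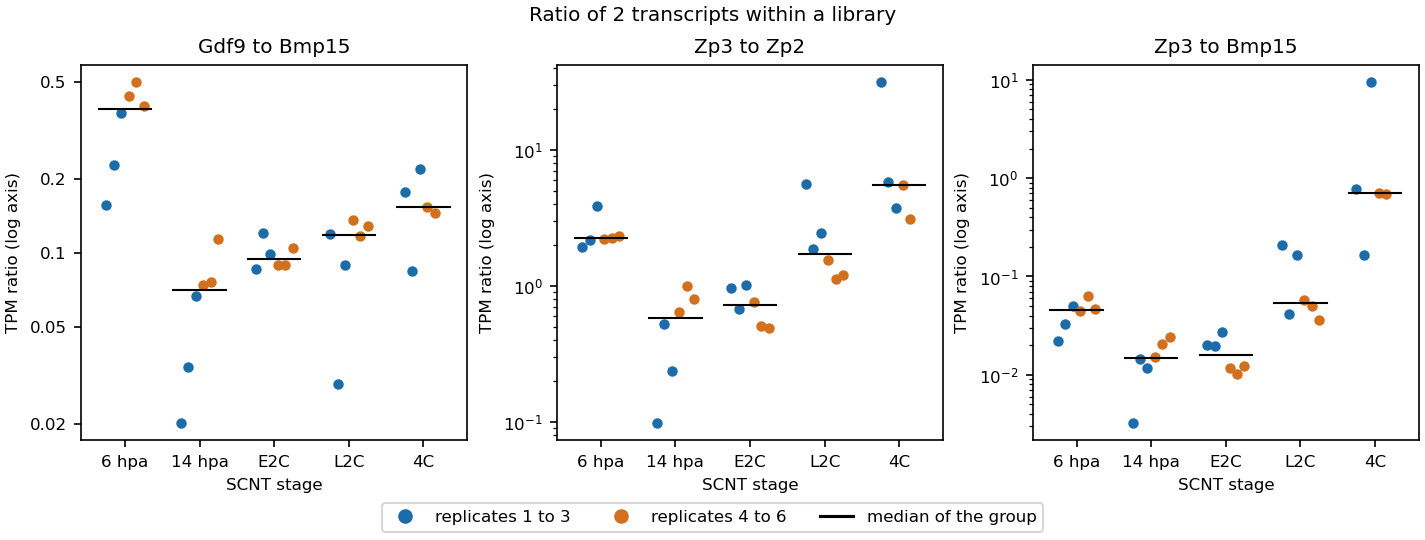
TPM of Gdf9 over Bmp15, Zp3 over Zp2 and Zp3 over Bmp15 in each SCNT library from 6 hpa to 4C, on log axes; points are libraries, blue for replicates 1 to 3 and orange for 4 to 6, and bars are medians. Gdf9 over Bmp15 steps down from 6 to 14 hpa, and Zp3 over Zp2 drops from a median of 2.24 to 0.584 and is back at 1.71 by L2C.

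In the blastocyst little of the set was left. The sum of the 8 genes was between 0.588 and 17.1 TPM in the ICM (median 5.18, with Figla alone at 16.5 in the highest library) and between 0.978 and 3.52 in the TE (median 2.85), against 0.0158, 0.864 and 2.23 TPM in the CCs in ascending order. Against 6 hpa, 7 of 8 genes were lower in the ICM, against 30.4% of all genes, and 7 of 8 in the TE, against 28.3%, with differences from -4.25 to -10.60 and from -4.28 to -10.84. The limit set by the filter on such counts holds here too. Against CCs 0 of 8 genes were called by limma in the ICM or the TE, and 0 had an unadjusted p under 0.05, where 37.9% and 35.8% of all genes were called in either direction. With 0.1 TPM added in place of 1, 2 genes were called between ICM and CCs and 1 between TE and CCs. These fits pooled sets that stood apart. Bmp15 in TE had at most 0.0359 TPM in libraries 1 to 3 and at least 0.7055 in libraries 4 to 6. Oosp1 in TE had at most 0.1617 and at least 1.575 TPM, and Bmp15 in ICM at most 0.4674 and at least 1.361. ICM libraries 1 to 3 held 6177 to 6771 genes at 1 TPM, and libraries 4 to 6 held 9011 to 10032. Figla in ICM and Zp2 and Gdf9 in TE were highest in libraries 1 to 3. Libraries 4 to 6 alone were not tested against CCs. Between SCNT ICM and TE 0 of 8 were called and 0 had an unadjusted p under 0.05, against 5.79% of all genes. The 8 TE markers summed to between 2123 and 9062 TPM in the SCNT ICM and to between 7163 and 17380 TPM in the TE.

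Other genes of the same pathways were described by lists fixed for this work. Of the 12 other egg transcripts, such as Btg4, Dppa3 and Zbed3, 12 were higher at 6 hpa than in CCs (25.8% of all genes), 12 were lower at L2C than at 6 hpa (15.7% of all genes), and at 8C 10 were lower (31.2% of all genes) and 1 was higher. Btg4, an adaptor of the deadenylase that shortens tails, went from a median of 5770 TPM at 6 hpa to 1245 at L2C and 3.25 at 8C. Of 6 tested genes of the coat and of gamete contact, 4 were lower and 1 higher at L2C than at 6 hpa, where 15.7% of all genes were lower. Oosp3 and Oosp2, relatives of Oosp1, differed from 6 hpa by -3.30 and -3.04 at L2C, and by -10.43 and -8.85 at 8C. Oosp2 kept a level of 788.9 to 1150 TPM at 14 hpa against 709.2 to 826.6 at 6 hpa, and did not pass there (0.36, adjusted p = 0.508). Cd9, the egg tetraspanin needed for fusion with sperm, rose instead, from a median of 38.9 TPM at 6 hpa to 1099 at 8C (4.79, adjusted p = 1.13e-22). It was also at 619.5 to 791.3 TPM in CCs, so it is no marker of the oocyte.

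The receivers of the GDF9 and BMP15 signals were in the embryo as well. Of 9 tested receptor and SMAD genes, 5 were lower at 14 hpa than at 6 hpa and 0 higher, against 5.02% of all genes lower, and 6 were lower and 1 higher at 8C, against 31.2% lower. Bmpr1b, a type I receptor, went from a median of 81.5 TPM at 6 hpa to 28.5 at 14 hpa, 6.22 at L2C and 0 at 8C, and at 14 hpa its range of 22.8 to 34.4 lay below that at 6 hpa of 45.2 to 118.0 (-1.36, adjusted p = 1.86e-05). Bmpr2, the type II receptor of both ligands, fell by 1.09 to 14 hpa (adjusted p = 0.0168), in the same interval as Gdf9. Bmpr1a fell by 2.02 to 14 hpa (adjusted p = 0.00174) and was back at a median of 14.4 TPM at L2C, against 13.0 at 6 hpa. Of the 9 tested ligands of oocyte and follicle, Bmp6 fell by 1.19 to 14 hpa (adjusted p = 0.023), 1 was lower at L2C than at 6 hpa and 4 at 8C (15.7% and 31.2% of all genes), among them Kit, the receptor of Kit ligand listed with them, which fell by 4.17 (adjusted p = 1.73e-17). Of 4 tested oocyte transcription factors, Tbpl2 fell by 2.56 to L2C (adjusted p = 8.53e-08), while Taf4b rose by 1.19 to L2C (adjusted p = 0.00876) and Foxo3 by 3.30 to 8C (adjusted p = 1.18e-05).

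The genes whose levels ran most like each of the set over the 56 libraries were found by Pearson's r of log2(TPM + 1), as a description, since stages share their libraries and most such genes follow the same loss of egg RNA. Bmp15 was matched best by C86187 (r = 0.994), Nlrp9c (0.992) and Tgfb2 (0.991). Oosp1 was matched best by Bmp15 itself (0.991), then C86187 (0.991) and Nlrp9c (0.989). Gdf9 ran with Tmcc3 (0.974), Kcnh1 (0.970) and Lrrc17 (0.969), Zp1 with Hoxa7 (0.957), Kcnh1 (0.954) and Gm16551 (0.946), and Zp2 with Tmtc1 (0.981), Pak7 (0.976) and Kit (0.975). Nobox ran with Oas1h (0.976), Fam90a1a (0.974) and Nlrp9b (0.974). Zp3 had no such close partner, with Nrn1l (0.896), Socs7 (0.880) and Khdc1b (0.874) first, and r of 0.829 or less with every other gene of the set. Figla had Bcl2l15 (0.597), AI429214 (0.565) and Ccdc62 (0.552).

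In the fertilized blastocysts the targets were read first. The control ICM had 253.3 and 310.1 TPM of Mcrs1 and the ICM of embryos given the Mcrs1 MO had 86.8 and 73.4, while in TE the control libraries had 218.7 and 294.0 and the injected ones 41.1 and 45.5. Of Max, the control ICM had 38.0 and 8.42 TPM and the ICM of embryos given the Max MO had 6.82 and 0.443, while in TE the control libraries had 34.5 and 28.5 and the injected ones 16.3 and 8.68. Each target was thus lower in every library given its own MO than in either control of its lineage. Max was also lower in TE given the Mcrs1 MO (17.6 and 15.7 TPM), and in the ICM given it Max had 14.4 and 9.25. Mcrs1 with the Max MO had 218.2 and 242.3 TPM in the ICM and 206.3 and 193.7 in TE, below both controls. The fall of Max in TE was therefore not particular to its own MO. Of the 8 genes, Zp2 and Zp3 passed the filter of a mean of 1 TPM over the 12 libraries, in a fit of 11219 genes.

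Zp2 read 0 and 0.180 TPM in control ICM cells. Embryos given the Max MO had 4.69 and 3.63 TPM of it in the ICM, and those given the Mcrs1 MO had 1.50 and 3.49. All 4 injected ICM libraries lay above both controls. With Max MO the difference was 2.24 ± 0.62 (SE, limma adjusted p = 0.0219), 1 gene called of the 2 tested, against 8.65% of all genes called higher. Zp2 passed the filter only through libraries of injected embryos, and Zp3 only through control ICM replicate 2. Both were thus tested because of the libraries where they were high, so the share of 1 in 2 cannot be set against that of all genes. Without the filter Zp2 kept its call. With Mcrs1 MO it was 1.63 (adjusted p = 0.108), with 0 genes called and 1 at an unadjusted p under 0.05, against 10.1% of all genes in either direction. The Max MO difference kept its size but lost its call in a fit of these groups alone (2.24, adjusted p = 0.123), without Max MO replicate 1 (2.09, adjusted p = 0.098) and without Max MO replicate 2 (2.39, adjusted p = 0.0674). In the latter cases a single Max MO library is left, whose spread is assumed to be that of the other groups. In TE Zp2 was at 0 in both control and both Max MO libraries and at 1.64 and 0 TPM with Mcrs1 MO, and the effect of Max MO in ICM minus that in TE, 2.24 ± 0.87 (SE, limma adjusted p = 0.323), did not pass, so that a difference between the lineages was not shown. The locus assembled over Zp2 covered 97.8% and 85.9% of the gene in the Max MO ICM, and 25.6% and 97.5% in the Mcrs1 MO ICM, reaching neither end in any of them.

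The control ICM libraries were not alike. Replicate 2 had 8.41 TPM of Zp3, 8.39 of Gdf9, 9.24 of Oosp1 and 1.55 of Bmp15, each on a locus that covered the whole gene, while replicate 1 had 0 of the first 3 and 0.113 of Bmp15. The 8 TE markers summed to 17240 TPM in replicate 1 and to 632.7 in replicate 2. They summed to 2880 and 6037 in the Max MO ICM, 12160 and 8652 in the Mcrs1 MO ICM, and 22410 and 19700 in control TE. The 8 ICM markers summed to 1455 and 1928 TPM in the control ICM and to 230.9 and 353.4 in control TE. The part of this in the differences was not tested. Embryos given the Max MO had 2.34 and 0.112 TPM of Zp3 in the ICM, and those given the Mcrs1 MO had 0 in both libraries, differences of -0.67 and -1.62 that did not pass. The comparison thus turns on control replicate 2. In TE 0 genes were called with Max MO or Mcrs1 MO and 0 had an unadjusted p under 0.05, against 2.50% and 5.08% of all genes, and between control ICM and TE likewise 0, against 2.92%. Figla, at 2.83 and 0.749 TPM, was above 0 in the ICM with Max MO alone, below the filter and untested.

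**Figure D4:**
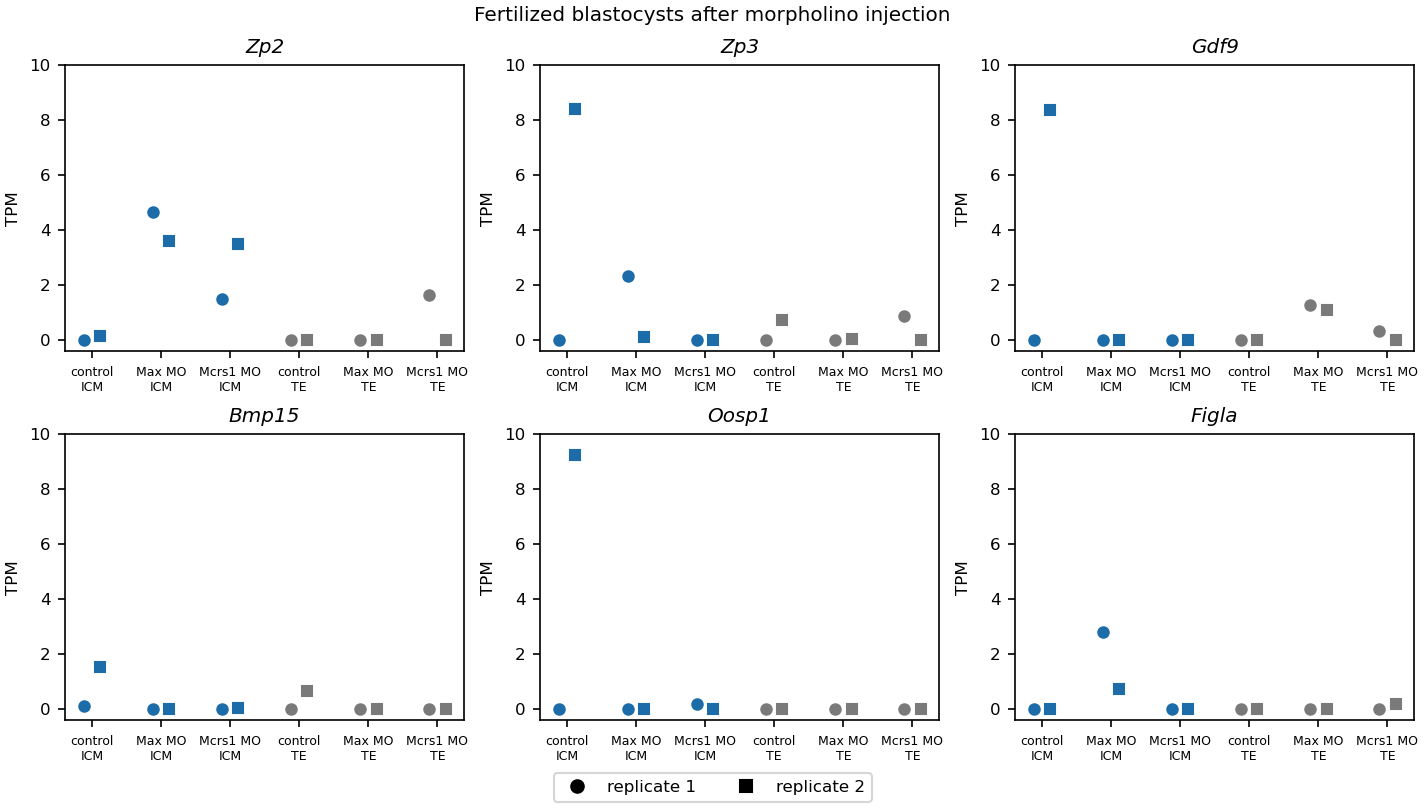
TPM of 6 of the genes in each of the 12 fertilized blastocyst libraries, with ICM in blue and TE in grey, and circles for replicate 1 and squares for replicate 2. Zp2 is above 1 TPM in the 4 Max MO and Mcrs1 MO ICM libraries and near 0 in the controls, and control ICM replicate 2 carries Zp3, Gdf9 and Oosp1 at over 8 TPM.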

How the data were processed

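Smart-seq2 libraries of poly(A) RNA were used, 3 of CCs, 53 of SCNT embryos and 12 of fertilized blastocysts, grouped and numbered by their sample labels. For 1 of the 4C libraries the label (replicate 5) and the name of its table give different numbers, and the label was followed. Per the labels and the study's methods, the authors removed adapters (cutadapt 1.16), aligned reads to mm10 (HISAT2) and quantified genes by StringTie (versions of these not given in the sources used here), 1 table per library, with no pooling. The deposited TPM signal is scaled over the loci assembled in a library, and annotated genes overlap these loci. The deposited FPKM and coverage were used only as a measure of depth (coverage divided by FPKM, in aligned gigabases). No read counts were among the values used, so no count test, interval or floor is given. Ldha, a gene of every cell, was below 1 TPM in 13 of 68 libraries, so that 1 low library need not mean that a gene was off.

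The 8 genes and the lists were chosen with earlier results of these data known. All 8 are named with their values, from each other list the up to 3 genes of highest mean TPM, and for each of the 8 the 3 genes of highest Pearson's r. TPM was summed per gene, and log2(TPM + 1) of genes with a mean of at least 1 TPM was fitted with limma 3.58.1 in R 4.3.3 (lmFit, eBayes with trend), over 56 libraries in 10 groups (12084 genes) and 12 libraries in 6 groups (11219 genes). Calls needed a Benjamini-Hochberg adjusted p under 0.05 over all genes and at least 2-fold. On data simulated for L2C against 6 hpa, limma was tested and its calls were checked before use. For ratios an exact permutation test (two-sided) was used. Python 3.11.15, numpy 2.4.6, pandas 2.3.3 and matplotlib 3.10.9 were used.

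The labels do not say that same-numbered libraries share embryos. As a check, each library's deviation from its group mean was correlated over genes with that of the library of the same number. Every pair was above 0.1 for 14 hpa with 6 hpa (0.142 to 0.390, 6 pairs) and for SCNT ICM with TE (0.130 to 0.298). Libraries of unlike number were not correlated, so this cannot tell shared embryos from the offset between libraries 1 to 3 and 4 to 6. The main fits and the ratio tests took the libraries as unpaired. Alternatives were a pseudocount of 0.1, no filter, the largest entry of a gene, TPM rescaled over annotated genes, quantile normalization, a replicate block, fits of 2 groups alone, libraries 1 to 3 or 4 to 6 alone, and libraries left out in turn.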

Additional observations from a re-analysis of the deposited data

Results flagged for a closer look

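In 11 of 57 groups in which a gene reached 1 TPM, its highest library stood apart from the others by Dixon's criterion. That criterion assumes normally spread values, and the groups were kept for a high library. How often chance meets it here is therefore not known. At L2C these were Zp1 in replicate 4 (20.3 TPM, next 9.66), Zp3 in replicate 3 (88.0 TPM, next 47.4) and Figla in replicate 3 (4.00 TPM, next 0.321). At 8C they were Oosp1 in replicate 4 (6.50 TPM, next 2.25) and Figla in replicate 6 (1.89 TPM, next 0.546), and in the morula Oosp1 in replicate 1 (5.03 TPM, next 0.549).

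In the SCNT ICM, Figla stood apart in replicate 1 (16.5 TPM, next 0.325), Zp3 in replicate 5 (2.44 TPM, next 0.153) and Gdf9 in replicate 4 (6.16 TPM, next 0.881), each in another library. In the TE, Zp2 stood apart in replicate 2 (1.38 TPM, next 0.0945) and Gdf9 in replicate 1 (2.51 TPM, next 0.655). The ICM value of Figla lay on a locus over 100% of the gene.

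Outside the gene entries, 17 of the 24 libraries from 6 hpa to L2C held an assembled locus on the strand opposite to Nobox, with a median of 9.24 TPM, and 0 of the 32 other CC and SCNT libraries did. Strand-aware counting is not stated in the sources used here, so reads of Nobox and of such a locus cannot be told apart.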

How the results depend on the processing

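Of 866 values of single genes under the other settings, 828 kept their direction and their side of the threshold, 31 lost their call, 6 gained one and 1 turned, Bmp15 from 6 to 14 hpa, at 0.10 among libraries 4 to 6. The falls of Gdf9 and Zp3 at 14 hpa passed in all 15 alternatives tried, and the fall of Oosp1 in 5. With quantile normalization 1 gene was called at E2C against 14 hpa, 1 at the morula against 8C, 2 at ICM against morula and 2 at ICM against CC. Among libraries 4 to 6 the counts were 1 at E2C, 5 at 8C against 4C, 1 at the morula, 2 at ICM and 2 at TE against morula, and among libraries 1 to 3 they were 0 at ICM and 0 at TE against morula. With a pseudocount of 0.1 the counts were 1 at L2C against E2C, 2 at ICM and 1 at TE against CC, and with rescaled TPM 5 at 8C against 4C. With the 2 groups alone they were 4 at L2C against E2C and 0 in the Max MO ICM, and without a filter 2 in the Max MO ICM. The causes were not tested. With libraries left out in turn the counts ran from 2 to 3 at 14 hpa, 0 to 1 at E2C, 1 to 3 at L2C against E2C, 6 to 7 at 4C, 3 to 4 at 8C against 4C, 4 to 6 at L2C against 6 hpa, 7 to 8 at TE against 6 hpa, 0 to 2 in the Max MO ICM, 0 to 1 in the Mcrs1 MO ICM and 0 to 1 between control ICM and TE, and stayed at 7 at 8C and ICM against 6 hpa and at 6 hpa against CC, at 1 at ICM and at TE against morula, and at 0 elsewhere. Libraries 4 to 6 were not run against CC, which has 3. The replicate block changed no call for 14 hpa against 6 hpa or for SCNT ICM against TE, where pairing was not shown. For the other steps the replicate is only a shared number, and the block gave 4 genes at L2C against E2C, where the lowest pair correlation was 0.018. Without read counts, the depth behind a low TPM is unknown.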
